A study of Mus musculus with 8 samples.

Results

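The insulin-like growth factor (IGF) binding protein genes Igfbp2 to Igfbp7, the growth factor gene Igf1, the receptor genes Igf1r and Insr and the receptor substrate gene Irs1 were followed in 3T3-L1 cells, a mouse line of preadipocytes. These are 10 of the 20644 named genes with a probe on the array. They were found by matching the accession of each probe to a RefSeq symbol, which gave 17 probes. Igfbp5 was chosen by its measured levels, which increased far more in one line than in the other after induction, so its values are given as a description without a test. The other 9 genes were taken by name, as the rest of its family and as the genes of the insulin and IGF receptors.

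The sh8 line is 3T3-L1 that stably carries slincRAD-shRNA-8, a hairpin aimed at slincRAD, which is a long noncoding RNA, and WT is wild-type 3T3-L1. Each line was sampled at days -2, 0, +2 and +4, with day 0 at confluence. From then on the medium, renewed every 2 days, held 0.5 mM isobutylmethylxanthine (IBMX), which raises cAMP, 1 µM dexamethasone, a glucocorticoid, and 167 nM insulin. Before induction both lines grew in medium with 10% newborn calf serum. One-colour Agilent arrays gave 1 measurement per line and day, 8 in all. The samples hold 1 hairpin and no control hairpin, the labels do not say whether the sh8 line is a clone, and knockdown was not checked, because slincRAD itself was not analysed here.

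A level is the log2 of a probe's processed intensity minus the log2 of the 75th percentile intensity of its array, so 0 stands for that percentile. The 75th percentile ran from 760 to 1239 intensity units and 64.9% to 81.7% of probes were well above background, with 0 probes saturated. Precision is limited by how few arrays there are. The arrays of days -2 and 0 were scanned together as slide 1, and the later 4 arrays as slide 2 (called the first and second slide here), so the period after induction and the second slide cannot be told apart. All 9 preadipocyte and fibroblast markers were well above background on all 8 arrays, and the adipocyte hormone gene Adipoq only on the arrays of days +2 and +4.

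The arrays of the second slide stood apart in another respect. All 13 lung epithelium markers with a probe (of 14 listed) were well above background on each of its arrays, against 5 to 7 on each array of the first slide. Their summed level, in multiples of the array's 75th percentile intensity, was 22.7 to 27.9 in sh8 and 11.5 to 16.5 in WT at days +2 and +4. At days -2 and 0 it was 2.34 to 4.71 in sh8 and 1.61 to 1.80 in WT. The largest single part on the second slide was Cyp2f2, at log2 levels of 3.43 and 3.91 in sh8 and 1.57 and 2.42 in WT. Cyp2f2 was also higher in sh8 at days -2 and 0, at 0.22 and 1.92, against -0.83 and 0.022 in WT. The gap between the lines in the sum is thus in large part that of this gene. The median lung marker was also higher in sh8 on the second slide, at -0.37 and -0.37, against -0.86 and -0.70 in WT. Scgb3a1 was lower in sh8 at days +2 and +4, and Cldn18 at day +4. The surfactant gene Sftpc was at 1.62 and 1.57 in sh8 and at 1.03 and 1.53 in WT on the second slide and was not well above background on the first slide. Of 8 endothelial markers 7 to 8 were well above background in sh8 and 6 to 8 in WT after induction, against 3 in sh8 and 3 to 4 in WT before. Of 6 liver markers 2 to 3 were well above background on each array, Serpina1a and Tat on all 8, while Alb and Apoa1 were so on none.

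Other marker lists moved with day or line. The summed level of 6 smooth muscle and pericyte markers was 2.06 to 2.18 in sh8 and 2.61 to 2.70 in WT after induction. Before, it was 11.5 to 35.2 in sh8 and 12.3 to 34.9 in WT. It was mostly that of Acta2 before induction and in WT. In sh8 after induction Tagln (log2 0.031 and 0.29 at days +2 and +4) was above Acta2 (-0.13 and -0.23). The 11 adipocyte markers had a summed level of 17.2 to 26.9 in sh8, against 48.3 to 70.8 in WT, after induction, and of 12.1 to 24.2 in sh8, against 36.5 to 50.4 in WT, before. That sum is mostly Lpl and Fabp4, and the median marker was higher in sh8 at day -2 (-4.23 in sh8 and -4.51 in WT), day 0 (-4.00 in sh8 and -4.53 in WT) and day +2 (-3.46 in sh8 and -4.12 in WT). It was lower in sh8 at day +4 (-3.36 in sh8 and -2.15 in WT). For 7 macrophage and leukocyte markers the sum was 6.74 to 8.09 in sh8, against 5.14 to 5.15 in WT, after induction. Before, it was 7.53 to 7.62 in sh8, against 5.47 to 6.15 in WT. That sum is mostly Itgam. Lyz2 was well above background on all 4 arrays after induction and on none before. In both lines Ptprc, Adgre1 and Csf1r were also higher after induction, and Aif1 and Cd14 were lower. The part of these transcripts in the results below was not tested.

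IGF1 and insulin are related ligands that bind the receptor tyrosine kinases encoded by Igf1r and Insr, which then phosphorylate adaptors such as IRS1 and switch on phosphoinositide 3-kinase and AKT. IGF binding proteins hold IGFs outside the cell, prolong their life and can either block or present them to the receptor. Proteases such as pappalysin cut some binding proteins and free the ligand. In 3T3-L1 cells insulin or IGF1 is a needed part of the signal to become fat cells, and preadipocytes rely mainly on the IGF1 receptor.

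RefSeq start site windows, from 250 bases before to 50 after the gene's start (build GRCm38.p6), were at hand for 9 of the 10 genes, in 10 entries. Those of 4 genes are shown 5′ to 3′ because these are the binding protein genes that were more than 2-fold higher in sh8 on average and, for contrast, Igf1, which was lower. Capitals mark any match, on either strand, to the TATA box letters TATAAA, to the box named CCAAT, to the GC box with its letters GGGCGG, to the cAMP response element TGACGTCA or to part of the glucocorticoid response element, with the letters AGAACA. No match overlapped another.
Igfbp5 (chr1:72874816-72875115, minus strand): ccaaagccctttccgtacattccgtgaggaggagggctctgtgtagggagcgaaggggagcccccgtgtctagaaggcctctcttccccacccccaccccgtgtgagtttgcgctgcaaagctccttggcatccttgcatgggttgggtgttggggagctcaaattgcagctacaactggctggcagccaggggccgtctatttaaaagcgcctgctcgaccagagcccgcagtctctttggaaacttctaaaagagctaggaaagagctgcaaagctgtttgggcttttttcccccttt
Igfbp6 (chr15:102143936-102144235, plus strand): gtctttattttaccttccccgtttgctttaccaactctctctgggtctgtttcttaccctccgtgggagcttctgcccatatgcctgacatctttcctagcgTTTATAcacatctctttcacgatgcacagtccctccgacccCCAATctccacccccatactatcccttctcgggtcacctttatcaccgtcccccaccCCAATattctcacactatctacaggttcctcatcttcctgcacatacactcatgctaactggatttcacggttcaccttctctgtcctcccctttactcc
Igfbp4 (chr11:99040994-99041293, plus strand): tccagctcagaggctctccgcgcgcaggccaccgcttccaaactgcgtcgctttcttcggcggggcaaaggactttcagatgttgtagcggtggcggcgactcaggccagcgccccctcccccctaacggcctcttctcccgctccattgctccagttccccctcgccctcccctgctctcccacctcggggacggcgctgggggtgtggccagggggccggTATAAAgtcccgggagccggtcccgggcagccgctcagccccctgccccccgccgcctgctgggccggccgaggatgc
Igf1 (chr10:87860861-87861160, plus strand): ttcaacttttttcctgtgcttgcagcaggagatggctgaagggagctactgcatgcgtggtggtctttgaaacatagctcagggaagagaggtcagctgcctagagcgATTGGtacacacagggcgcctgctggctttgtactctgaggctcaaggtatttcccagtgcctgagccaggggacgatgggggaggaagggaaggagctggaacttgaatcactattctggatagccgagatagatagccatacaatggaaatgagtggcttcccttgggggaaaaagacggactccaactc

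The Igfbp4 window held TATAAA, 28 bases before the start. That of Igfbp6 held it once, on the opposite strand, with 2 CCAAT boxes, and that of Igf1 held 1 CCAAT box on the opposite strand, while none of these letters was found in the Igfbp5 window. Across all 32851 windows of this length, TATAAA occurred in 13.6% and CCAAT in 37.4%. GGGCGG occurred in 35.7% of all windows and in 4 of the 10 entries (Igfbp2, Igfbp7, Igf1r and Irs1). TGACGTCA occurred in 1.79% and in 0 of the 10, and AGAACA in 19.0% and in 1 of the 10, that of Igfbp2. These matches are descriptions and not sites of binding.

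Igfbp5, which encodes a secreted binding protein that also attaches to extracellular matrix, showed by far the widest range of the 10 genes. Its level was -4.56, -5.44, 2.99 and 3.00 in sh8 at days -2, 0, +2 and +4. In WT it was -8.38, -5.91, -2.65 and -1.98. The sh8 level was above the WT level on each day, and on the second slide all 4 arrays were well above background. On the first slide only the sh8 array of day -2 was. The difference between the lines was 49.7-fold at day +2 and 31.7-fold at day +4. At day -2 it was at least 2.93-fold, a bound against the lowest signal among probes well above background, and at day 0 neither line was above background, so no fold is given.

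As measured, the mean log2 difference of Igfbp5 over the days was 3.73 ± 2.30 (SD, n = 4 days), with 3.83, 0.48, 5.64 and 4.99 at days -2, 0, +2 and +4. The values of days -2 and 0, and so the mean and SD, include signals not well above background. After induction its mean level was 2.99 in sh8, a measured 255-fold above the mean of the same line before. In WT the mean level was -2.32 after induction, against a signal below background before, at least 12.1-fold higher. The log2 change was 7.99 in sh8 and 4.83 in WT as measured, so that the gap between the lines was 3.16 wider after induction than before. Without day 0 this figure was 1.48 and without day -2 it was 4.84, and it uses signals near or below background on the first slide. From day +2 to day +4 the level stayed within 0.02 in sh8 and was 0.66 higher in WT. A lower level in cells of this bulk RNA and a smaller number of cells that make the transcript cannot be told apart. Every WT signal of Igfbp5 well above background came from the second slide. On its arrays more of the lung and endothelial markers were well above background, and the part of such transcripts in the Igfbp5 levels was not tested.

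**Figure D1:**
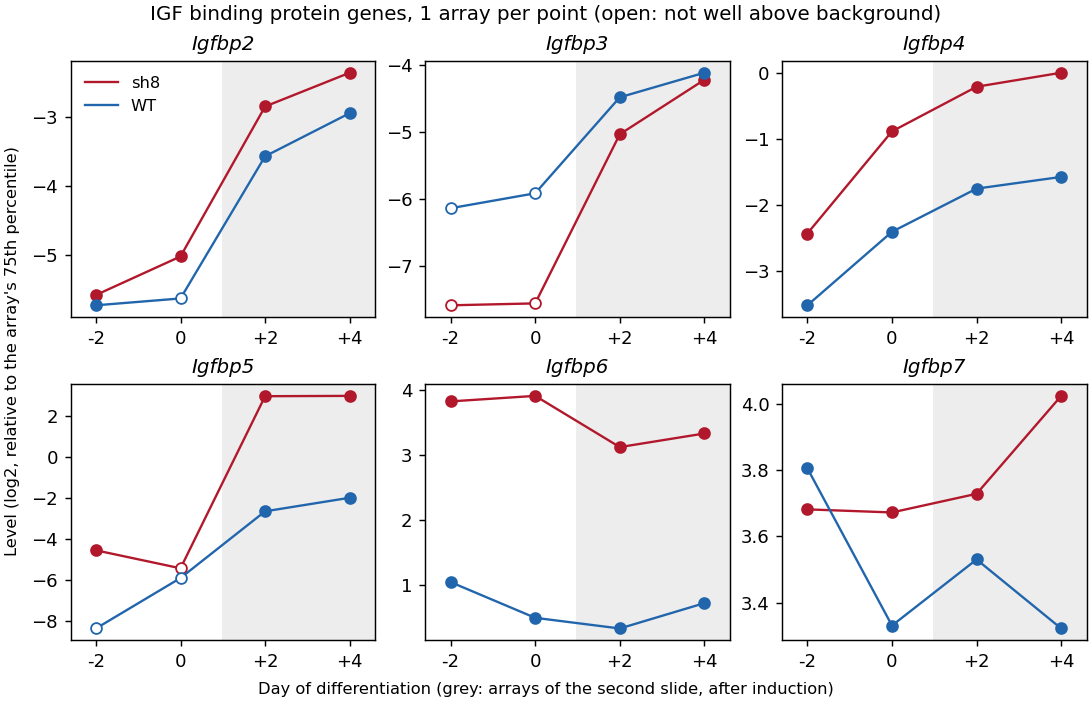
Level of the 6 IGF binding protein genes on each array (y axis, log2 relative to the array's 75th percentile, a separate scale per panel) against day (x axis), with sh8 in red and WT in blue. Open points were not well above background. Igfbp5 reached 2.99 and 3.00 in sh8 at days +2 and +4, against -2.65 and -1.98 in WT, and Igfbp6 stayed above 3 in sh8 at every day, against at most 1.05 in WT.

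The main comparison asked how sh8 differed from WT over the 4 days. Of the 9 genes other than Igfbp5, 3 were higher in sh8, Igfbp6, Igfbp4 and Igfbp2, and 1 was lower, Igf1. Igfbp3, Igfbp7, Igf1r, Insr and Irs1 did not pass. In the same fit (limma, adjusted p under 0.05 over all 26460 genes and transcripts) 27.0% of all features were called, 16.8% higher and 10.3% lower. The median log2 difference was 0.20 over the 9 genes and 0.13 over all features. With quantile scaling the calls over all features were 2642 higher and 2571 lower, in place of 4433 and 2722. The fit has 3 residual degrees of freedom, and separate cultures are not stated for the arrays. The p thus sets the mean difference between the lines against how much it varied between days, which may be partly technical.

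Igfbp6 encodes a binding protein with a preference for IGF2. Its level was 3.82, 3.91, 3.12 and 3.33 in sh8 at days -2, 0, +2 and +4, against 1.05, 0.50, 0.34 and 0.73 in WT. Every sh8 array lay above every WT array, and all 8 were well above background. The difference was 7.42-fold (log2 2.89 ± 0.16 SE, adjusted p = 0.00819) and ranged from 6.08-fold at day +4 to 10.6-fold at day 0. The log2 difference was 3.09 on the first slide alone, where no feature was called (adjusted p = 0.121), and 2.69 on the second (adjusted p = 0.0301).

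Igfbp4, whose product is a binding protein that pappalysin can cut, had levels of -2.44, -0.89, -0.21 and 0.0025 in sh8 at days -2, 0, +2 and +4. In WT these were -3.52, -2.41, -1.75 and -1.58. The sh8 array was higher on each day, but the ranges of the lines overlapped because the level increased with time in both. The difference was 2.70-fold (log2 1.43 ± 0.12 SE, adjusted p = 0.00989), with 2.13-fold at day -2 and 2.87-fold to 2.99-fold on the later days.

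Igfbp2 had levels of -5.58, -5.02, -2.84 and -2.35 in sh8, against -5.73, -5.63, -3.57 and -2.94 in WT, with WT at day 0 not well above background. The difference was small, 1.43-fold (log2 0.52 ± 0.13 SE, adjusted p = 0.0433), and lost its call with quantile scaling (log2 0.33, adjusted p = 0.118), with the authors' values (0.115), with normexp (0.055), without the filter (0.0616), with the slide as block (0.127) and on the second slide alone (0.0539). A second probe of Igfbp2, well above background at days +2 and +4 only, differed by 0.53 and 0.52 there.

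Igfbp3, a main carrier of IGFs in serum, was well above background on the second slide only. There it was at -5.03 and -4.21 in sh8, against -4.48 and -4.11 in WT. Both sh8 arrays were lower than the WT array of their day, by 1.47-fold and 1.08-fold. Over all days the log2 difference was -0.94 (adjusted p = 0.0733), but -0.11 with normexp, and it passed with quantile scaling (-1.18, adjusted p = 0.0443) and with the authors' values (-1.14, 0.0372). Igfbp7, whose product binds IGFs weakly, was bright and nearly level in both lines, at 3.67 to 4.02 in sh8 and 3.32 to 3.80 in WT. Its log2 difference was 0.28 (95% interval -0.13 to 0.69, adjusted p = 0.23).

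Igf1, the ligand, had levels of 0.35, -0.53, -1.08 and -0.65 in sh8 at days -2, 0, +2 and +4, against 1.46, 1.18, 0.92 and 1.46 in WT. Every sh8 array lay below every WT array. Igf1 was 3.32-fold lower (log2 -1.73 ± 0.19 SE, adjusted p = 0.0124), with 2.17-fold, 3.26-fold, 4.00-fold and 4.31-fold lower values at the successive days. The probes of Igf1 disagreed: the others differed by -1.70, -0.96 and, for the dimmest, 0.15, and with the mean over probes the difference was -1.06 (adjusted p = 0.0156). All 4 probes carry the same accession.

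The receptor genes differed little between the lines. Igf1r was at 1.49, 2.42, 1.78 and 2.14 in sh8, against 1.89, 2.05, 1.55 and 1.55 in WT, lower in sh8 at day -2 and higher on the other days. Its log2 difference was 0.20 (95% interval -0.28 to 0.68, adjusted p = 0.449). Insr was at -1.92, -0.36, -0.66 and -0.52 in sh8, against -1.56, -0.44, -0.43 and -0.73 in WT, a log2 difference of -0.074 (95% interval -0.42 to 0.27, adjusted p = 0.691). Its other probes differed by -0.20 and -0.17. These intervals leave room for differences of up to 0.68 higher in sh8 for Igf1r, and of up to 0.42 lower or 0.27 higher in sh8 for Insr.

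Irs1, the adaptor, was slightly lower in sh8 on each day, at 2.86, 2.97, 1.41 and 1.57, against 3.21, 3.17, 1.70 and 1.77 in WT. The log2 difference was -0.26 (95% interval -0.49 to -0.032, adjusted p = 0.0856). It passed with normexp (-0.26, adjusted p = 0.0305) and with the mean of both probes (-0.33, adjusted p = 0.0494), was -0.14 with quantile scaling (adjusted p = 0.311), and differed by -0.40 at the second probe.

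**Figure D2:**
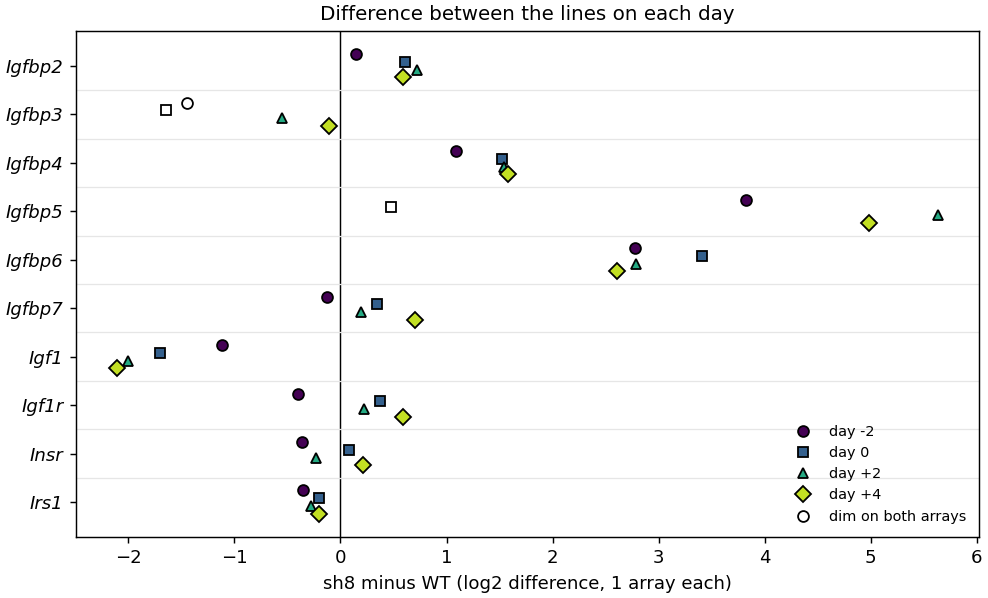
Difference between the lines (x axis, sh8 minus WT, log2, 1 array of each) for the 10 genes (rows), with a symbol for each day. Open symbols mark days on which neither array was well above background. Igfbp2, Igfbp4, Igfbp5 and Igfbp6 lie to the right of 0 on all 4 days, and Igfbp3, Igf1 and Irs1 to the left. Igfbp5 runs from 0.48 at day 0 to 5.64 at day +2.

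All 4 calls of this comparison were lost without day +2 and without day +4, when no feature was called, and on the first slide alone. Without day 0 only Igfbp6 passed (adjusted p over the leave-one-out fits from 0.0198 to 0.0586). In the fits without 1 day the log2 difference was 1.39 to 1.55 for Igfbp4, 2.72 to 2.99 for Igfbp6, 0.45 to 0.64 for Igfbp2 and -1.94 to -1.61 for Igf1. On the first slide alone it was 1.31 for Igfbp4, 3.09 for Igfbp6, 0.38 for Igfbp2 and -1.41 for Igf1.

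The next question was what changed after induction. At days +2 and +4, compared with days -2 and 0 in both lines, Igfbp2, Igfbp3, Igfbp4 and Insr were higher and Irs1 was lower, so 5 of the 9 genes passed. In this comparison 36.3% of all features did, 26.8% higher and 9.54% lower, and with quantile scaling 4370 were higher and 3304 lower, in place of 7083 and 2523. The median log2 change was 0.029 over the 9 genes and 0.17 over all features. As above, slide and period cannot be told apart, and the lung and endothelial markers were higher on the same arrays.

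Igfbp2 was 5.92-fold higher (log2 2.57 ± 0.13 SE, adjusted p = 0.00113), by 2.70 in sh8 and 2.43 in WT. With normexp its change was 1.31, and with the mean over probes it was 4.25. Its 2 probes disagreed on the size of the change. The second probe was well above background on all 4 arrays after induction and on none before. Its measured change was 5.77 in sh8 and 6.10 in WT. Igfbp3 was at least 2.44-fold higher (adjusted p = 0.00619), a bound because it was below background on all 4 earlier arrays, and its measured log2 change was 2.34, or 0.69 with normexp. Igfbp4 was 2.69-fold higher (log2 1.43 ± 0.12 SE, adjusted p = 0.00286), but the change was 0.76 without day -2 and 2.09 without day 0 (adjusted p = 0.0257 and 0.00956).

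Irs1 was 2.71-fold lower after induction (log2 -1.44 ± 0.088 SE, adjusted p = 0.00152), by almost the same amount in both lines, -1.42 in sh8 and -1.46 in WT. All 4 later arrays lay below all 4 earlier ones, and the second probe changed by -1.42 in sh8 and by -1.58 in WT. Insr was 1.40-fold higher (log2 0.48 ± 0.13 SE, adjusted p = 0.0446), but this rested on its low level at day -2. Without that day the change was -0.19 (adjusted p = 0.396), and the call was also lost with quantile scaling (0.0602), the authors' values (0.059), no filter (0.0546) and the mean of its probes (0.0622). Igfbp6 (-0.44, adjusted p = 0.0886), Igf1 (-0.45, 0.124), Igf1r (-0.21, 0.425) and Igfbp7 (0.029, 0.901) did not pass.

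**Figure D3:**
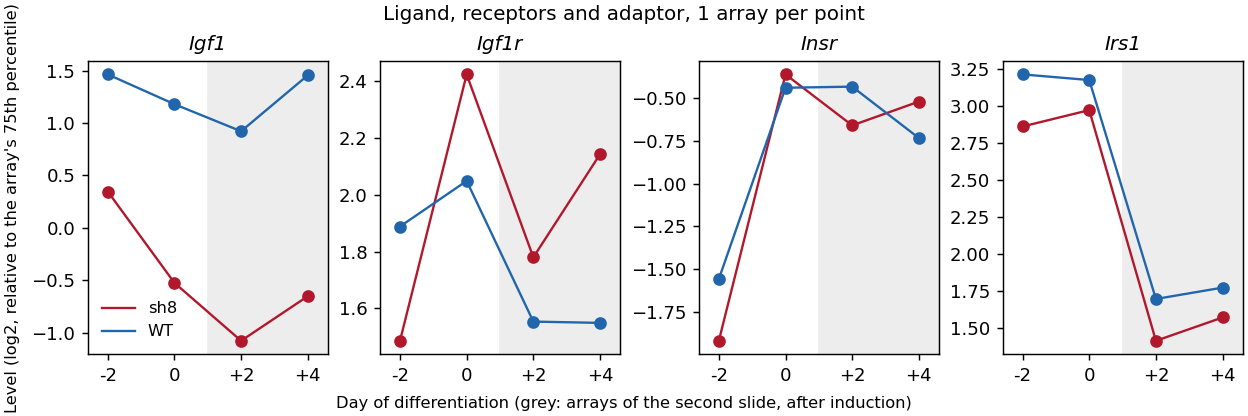
Level of Igf1, Igf1r, Insr and Irs1 on each array (y axis, log2 relative to the array's 75th percentile, a separate scale per panel) against day (x axis), with sh8 in red and WT in blue. Igf1 lies lower in sh8 throughout, at most 0.35 against at least 0.92 in WT, and Irs1 drops together in both lines between day 0 and day +2.

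Whether induction changed these genes differently in sh8 than in WT was tested by the interaction of line and period. None of the 9 genes passed, and neither did any of the 26460 features (0% called), although 1 of the 9 and 5268 features had an unadjusted p under 0.05. This model has 2 residual degrees of freedom. That gene was Igfbp3, whose increase was larger in sh8 by 1.22 (unadjusted p = 0.00642, adjusted p = 0.141), but the value was 0.041 with normexp, and it rests on signals below background before induction. For Igfbp6 the interaction was -0.40 (95% interval -1.18 to 0.39), for Igf1 -0.64 (-1.37 to 0.085), for Igfbp4 0.26 (-0.34 to 0.85) and for Irs1 0.035 (-0.39 to 0.46). The untested value for Igfbp5 was 3.16.

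**Figure D4:**
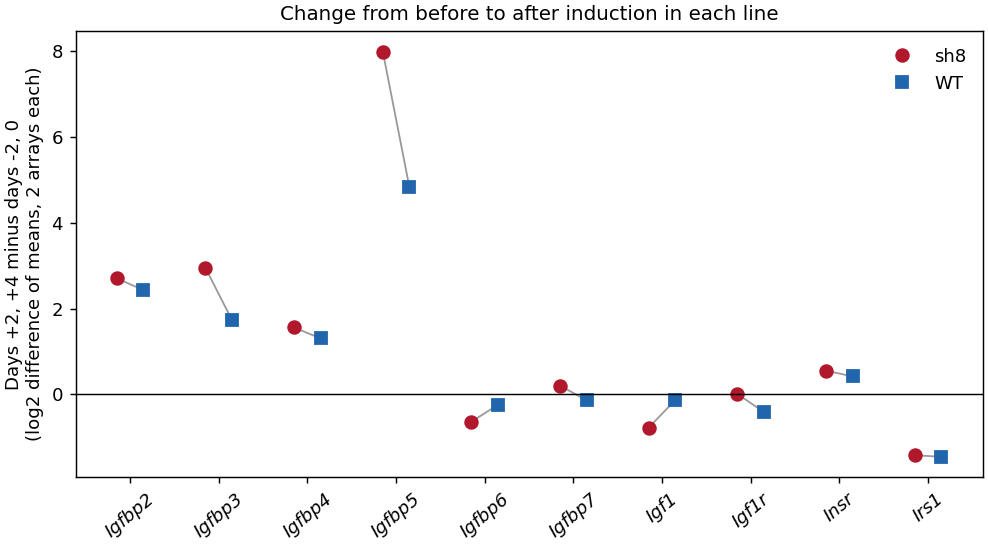
Change in mean level (y axis, days +2 and +4 minus days -2 and 0, log2, 2 arrays each) for the 10 genes (x axis) in sh8 (red circles) and WT (blue squares), as measured, with signals below background for Igfbp3 and Igfbp5 before induction. Igfbp5 is at 7.99 in sh8 and 4.83 in WT, while the symbols of Irs1 lie together at -1.42 and -1.46.

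Within the first slide, day 0 was compared with day -2 as cells came to confluence. By limma 0 of the 9 genes and 0 of 26460 features passed (0%), with 2 and 6712 at an unadjusted p under 0.05. These 2 were Insr, 2.53-fold higher at day 0 (log2 1.34 ± 0.19 SE, adjusted p = 0.0659), and Igfbp4, 2.52-fold higher (1.33 ± 0.17, adjusted p = 0.0615). Insr was higher by 1.56 in sh8 and 1.12 in WT, and its other probes by 0.80 and 0.63 in sh8 and by 0.53 and 0.50 in WT. Igfbp4 was higher by 1.55 in sh8 and 1.12 in WT. Both passed with normexp (adjusted p = 0.0196 for Insr and 0.0255 for Igfbp4).

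Within the second slide, day +4 was compared with day +2. Again 0 of the 9 genes and 0 features (0%) passed by limma, with 1 and 1437 at an unadjusted p under 0.05. The 1 gene was Igfbp2, which was 1.47-fold higher at day +4 (log2 0.56, adjusted p = 0.839), by 0.49 in sh8 and 0.63 in WT.

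Other genes of the IGF system were taken as a list of 14, of which 12 were measured. Besides genes of IGF supply it holds Igf2bp1, Igf2bp2 and Igf2bp3, which encode RNA-binding proteins, and the receptor gene Insrr. Its counts are therefore not about IGF supply alone. In sh8 compared with WT, 1 was higher and 2 were lower, 3 of 12 where 27.0% of all features were called. The secreted protease gene Htra1 was 1.63-fold higher (adjusted p = 0.024), the RNA-binding protein gene Igf2bp3 was 1.41-fold lower (adjusted p = 0.0246) and Pappa, which encodes pappalysin, was 1.96-fold lower (log2 -0.97 ± 0.20 SE, adjusted p = 0.0283). Pappa was at -0.38, 0.93, 0.84 and 1.28 in sh8, against 1.17, 1.80, 1.86 and 1.73 in WT, lower on each day. Igfbp4 was higher and Igf1 lower on the same arrays, as all differences between the lines share them, and a link between these genes was not tested. The list median was -0.080 on the log2 scale, against 0.13 over all features.

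After induction 2 of these 12 were higher and 4 lower, with a median of -0.13 against 0.17 over all features, of which 26.8% were higher and 9.54% lower. Igfbp1, another binding protein gene, was at least 1.37-fold higher, from below background (adjusted p = 0.00371). Htra1 was 2.51-fold lower (adjusted p = 0.00355), Igf2bp1 was 2.13-fold lower and Igf2bp2 was 1.73-fold lower (adjusted p = 0.00461 and 0.00474). No member passed in the interaction, at day 0 against day -2 or at day +4 against day +2, where 1, 5 and 2 had an unadjusted p under 0.05. The lowest p in the interaction was that of Pappa2, a second pappalysin, at -2.96, -1.80, -0.11 and -0.34 in sh8, against -0.90, 0.55, -0.79 and -1.36 in WT. It was lower in sh8 on the first slide and higher on the second, an interaction of 3.06 ± 0.21 SE (adjusted p = 0.121). Insrr, the insulin receptor-related receptor, was next (1.70, adjusted p = 0.27). Igf2bp1 (-1.50, adjusted p = 0.0544) and the IGF2 receptor gene Igf2r (0.79, 0.0705) came closest at day 0 against day -2. At day +4, compared with day +2, Igfals, which encodes the subunit that joins the serum IGF complex, was at least 1.67-fold lower (adjusted p = 0.405) and Igf2bp3 was at -0.39 (0.839).

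Genes of insulin and IGF signal transduction inside the cell formed a list of 40, with 39 measured. In sh8 compared with WT 5 were higher and 4 lower, 9 of 39 where 27.0% of all features were called, with a median of 0.072 against 0.13 over all features. Among those that passed were the small GTPase gene Rheb (1.65-fold lower, adjusted p = 0.0148), the kinase gene Mtor (1.57-fold higher, 0.0212) and Foxo1 (1.70-fold higher, 0.0208), a transcription factor that AKT keeps out of the nucleus. After induction 7 were higher and 4 lower, 11 of 39 where 36.3% of all features were called, with a median of 0.060 against 0.17 over all features. The feedback inhibitor gene Socs3 was 1.86-fold higher (adjusted p = 0.00561). Slc2a4, the insulin-responsive glucose transporter gene, was at least 1.38-fold higher (0.00589) and the kinase subunit gene Pik3cb was 1.86-fold lower (0.00801).

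None of these 39 passed in the other 3 comparisons, where 3, 12 and 1 had an unadjusted p under 0.05 in the interaction, at day 0 against day -2 and at day +4 against day +2. Rictor, which encodes a subunit of an mTOR complex, had an interaction of 1.16 (adjusted p = 0.132). Sos1, which encodes an exchange factor for RAS, differed by 0.89 at day 0 against day -2 (adjusted p = 0.0703). At day +4 against day +2 the lowest p were those of Cbl (-0.67, adjusted p = 0.839) and Foxo4 (0.53, 0.839), with Foxo4 well above background on 2 arrays.

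Igfbp5 was also compared with other genes by Pearson's r across the 8 arrays, among 1835 named genes that were well above background on every array and had a range of at least 2 on the log2 scale. The 5 most alike were Tcim (r = 0.989), Dio2 (0.978), Layn (0.976), Fes (0.975) and Ccrl2 (0.968). Dio2 encodes the deiodinase that activates thyroid hormone, Layn a hyaluronan receptor and Fes a tyrosine kinase. Tcim was at -0.34, -0.62, 2.02 and 1.99 in sh8, against -1.91, -1.17, 0.53 and 0.68 in WT. Like Igfbp5, each of the 5 was highest on the 2 sh8 arrays of the second slide, which the choice by r over the same arrays favours. Igfbp5 itself was not well above background at day 0 in sh8 or at days -2 and 0 in WT, and r includes those dim values. The points share arrays, slides and lines, so r is a description of these 8 arrays.

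**Figure D5:**
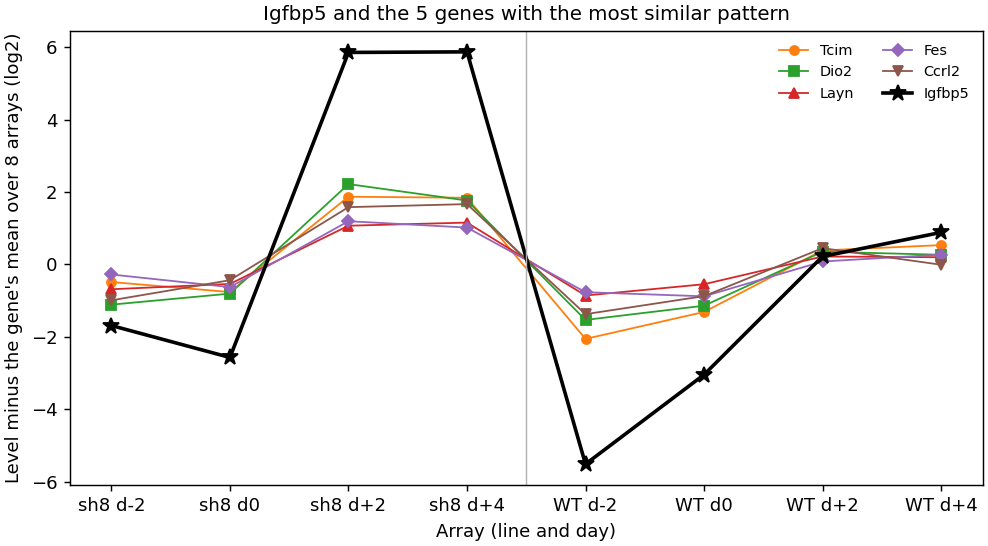
Level minus the gene's own mean over the 8 arrays (y axis, log2) on each array (x axis, sh8 left of the grey line and WT right) for Igfbp5 (black stars) and the 5 genes with the highest Pearson's r to it. All 6 peak on the sh8 arrays of days +2 and +4, which the choice by r over the same arrays favours. Igfbp5 spans the widest range, from -8.38 to 3.00 before centring.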

How the data were processed

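RNA of 8 samples was labelled with Cy3 and hybridised to 1-colour arrays, which the authors read with Agilent Feature Extraction 11.0.1.1, per the file headers and the submitters' processing notes. The deposited intensity of each spot is background-subtracted within its array and not normalized between arrays. The authors' deposited log2 value table, whose columns have nearly equal quantiles, by a method not given in the sources used here, was an alternative. It correlated best with each array's own scanner values (r from 0.994 to 1.00) and has column medians of 6.39, with no centring per gene.

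Of 44397 spots, 1377 controls were left out. Spots of a probe were averaged, 46 probes with outlier flags were dropped, and 27207 probes received a symbol through RefSeq accessions without versions (the names come from GRCm38.p6, while file headers name mm9) and 12176 received none. Log2 intensity minus the array's 75th percentile was used, with probes well above background on at least 2 arrays and, per gene, the probe with the highest mean, leaving 26460 features. limma 3.58.1 (R 4.3.3) was fitted with day as a factor and line, adding the interaction of line and period where that was tested, with p adjusted by Benjamini and Hochberg, threshold 0.05. The procedure was tested on simulated data. The normexp alternative used median in place of mean signals, with an offset of 50. Named genes were the 10 members, up to 4 genes of each list past the threshold with the lowest p (up to 2 if none passed) and the 5 most like Igfbp5, except that some list genes are not reported here. Members and lists were chosen with earlier results of these data known.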

Additional observations from a re-analysis of the deposited data

How the results depend on the processing

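Among the 9 genes other than Igfbp5, 5 was the highest and 3 the lowest number called in sh8 compared with WT under quantile scaling, normexp, the authors' values, no filter, the mean over probes and the slide as block (4 in the reported fit). Leaving out a day gave 0 to 4, the first slide alone gave 0 and the second slide alone gave 3. Over all features 7155 were called, against 5024 to 8586 under those settings and 0 to 4208 without a day. On the first slide alone 0 were called, and on the second slide alone 5185. Igfbp5 differed by 2.76 to 3.73 under those settings, by 3.10 to 4.82 without a day, by 2.15 on the first slide and by 5.31 on the second. At day 0 against day -2, normexp called 2 members in place of 0, and 3517 features in place of 0. The authors' values called 10. In the interaction normexp called 1281 features and 0 members. After induction 4 to 6 members were called without a day, in place of 5, and 2837 to 7213 features, in place of 9606 (7674 to 13033 under the other settings). At day +4 against day +2, quantile scaling and the authors' values each called 1 feature.

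Among the values of single genes under other settings, 343 kept direction and side of the threshold, 27 lost a call, 7 gained one and 19 changed sign, of which only Insr after induction was called in the reported fit. For sh8 against WT the sign changed for Igf1r on the first slide alone (-0.014) and for Insr without day -2 (0.022). For the interaction it changed for Igfbp2 with the mean over probes (-0.029), Insr without day -2 (-0.085) or day +4 (-0.085; from there to 0.355 without single days) and Irs1 without day -2 (-0.039) or day +4 (-0.0050; up to 0.110 without single days). For day 0 against day -2 it changed for Igfbp3 with quantile scaling (-0.25) and the authors' values (-0.17), Igf1 with the mean over probes (0.072) and Irs1 with normexp (-0.00073) and the mean over probes (-0.082). After induction it changed for Igfbp7 with quantile scaling (-0.026), the authors' values (-0.026) and without day 0 (-0.092, up to 0.150 without single days), Igf1r without day 0 (0.069, down to -0.479) and Insr without day -2 (-0.19, up to 1.15). For day +4 against day +2 it changed for Igfbp7 with quantile scaling (-0.045) and the authors' values (-0.045). The cause was not tested. Without a day, the sh8 and WT calls rest on fewer arrays and 2 residual degrees of freedom. Signals near background limit Igfbp1, Igfbp2, Igfbp3 and Igfbp5 before induction. By replicate number, no paired analysis was possible because all arrays carry the same one. The reported fit pairs the lines by day, with the day as block.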
